A study of Mus musculus with 68 samples.

Results

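The genes described here encode the pore-forming alpha subunits of voltage-gated calcium channels. Members were the rows of the deposited expression matrix whose gene symbol was Cacna1a, Cacna1b, Cacna1c, Cacna1d, Cacna1e, Cacna1g, Cacna1h or Cacna1i, which gave 8 of 36172 listed genes. They were followed in 68 single dopamine (DA) neurons of the ventral tegmental area (VTA), 35 from wild-type (WT) mice and 33 from 3xTg mice, a model of Alzheimer's disease, both at 12 months of age. In 3xTg mice, APP with the Swedish mutation, a presenilin 1 mutant and a tau mutant are expressed together, each homozygous, and the WT mice came from a line of the same mixed background kept in parallel, so line and transgenes cannot be told apart. Male and female mice were pooled. After a whole-cell recording in a brain slice the content of each neuron was drawn into the patch pipette and sequenced (Patch-seq), and the study kept cells that it scored as positive for Th, Slc6a3 and Slc18a2 and negative for Pvalb, Tmem119, P2ry12 and Aldh1l1. A library is 1 cell and no label ties cells to a mouse, so a genotype counts as 1 sample. No test was run and no p-value is given, and the spread between cells is not a spread between animals.

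In these channels the alpha subunit alone forms the pore, senses voltage and sets the pharmacological type. Cacna1c (Cav1.2) and Cacna1d (Cav1.3) encode L-type channels, Cacna1a (Cav2.1) the P/Q type, Cacna1b (Cav2.2) the N type, Cacna1e (Cav2.3) the R type, and Cacna1g (Cav3.1), Cacna1h (Cav3.2) and Cacna1i (Cav3.3) the low-voltage-activated T type. In midbrain DA neurons calcium that enters through such channels, together with calcium released from stores, opens small-conductance calcium-activated potassium (SK) channels, mainly SK3 encoded by Kcnn3, which shape the afterhyperpolarization and keep pacemaker firing regular. The question addressed was which types had transcripts in these neurons, and whether the types differed between genotypes and between cells with and without Kcnn3.

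The total estimated count per cell ran from 492505 to 1678624, with a median of 982390 in WT and 1194457 in 3xTg cells. The number of genes detected per cell ran from 3695 to 10426, with medians of 7476 in WT and 8511 in 3xTg. Label numbers fell into 5 runs of 1 genotype each. WT cells 1 to 22 (17 cells) and 57 to 74 (15 cells) are called the first and second WT run, 3xTg cells 24 to 55 (21 cells) and 76 to 92 (12 cells) the first and second 3xTg run, and WT cells 94 to 96 (3 cells) the last run. The labels do not say what the numbers mark. Th, Slc6a3, Slc18a2 and Ddc, the DA neuron markers, had a count in all 68 cells. A count of Pvalb, Tmem119, P2ry12 or Aldh1l1 was present in 5 WT and 5 3xTg cells, and Aldh1l1 itself was listed at 0 throughout. Of the endothelial markers, Cldn5 and Pecam1 were at 0 in every cell.

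R-type Cacna1e and P/Q-type Cacna1a were the 2 most abundant of the 8 genes per length of transcript in both genotypes, and Cacna1a was the one counted in most cells. Per kilobase (kb) of transcript, the counts summed over the WT cells gave a level of 5.36 CPM (counts relative to a library total of 1000000) per kb for Cacna1e and 4.21 for Cacna1a. T-type Cacna1g followed at 2.65, L-type Cacna1d at 1.41, N-type Cacna1b at 1.18 and T-type Cacna1h at 0.876. Cacna1c was at 0.174 and Cacna1i at 0.003005 CPM per kb. On this scale the order of the 8 genes was the same in 3xTg, with 3.25 for Cacna1e, 2.58 for Cacna1a, 2.17 for Cacna1g, 1.99 for Cacna1d, 1.55 for Cacna1b, 0.467 for Cacna1h and 0.207 for Cacna1c, while Cacna1i was at 0. Counting intervals (exact Poisson, 95%) of neighbours overlapped for Cacna1g (2.01 to 2.35) and Cacna1d (1.84 to 2.15) in 3xTg and for Cacna1d (1.27 to 1.55) and Cacna1b (1.06 to 1.298) in WT. These intervals cover counting error only. Per kb of coding sequence Cacna1d (2.66) was above Cacna1g (2.60) in 3xTg, though not in WT (1.88 and 3.16). RefSeq-linked transcripts of Cacna1b ran from 6984 to 9655 bases, so its place beside Cacna1d may depend on the transcript used. The spread over cells was wider than the gaps between genes, since the SD over WT cells of the normalized count per kb was 8.76 for Cacna1e around a mean of 4.66, and 3.85 for Cacna1a around 3.05.

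**Figure D1:**
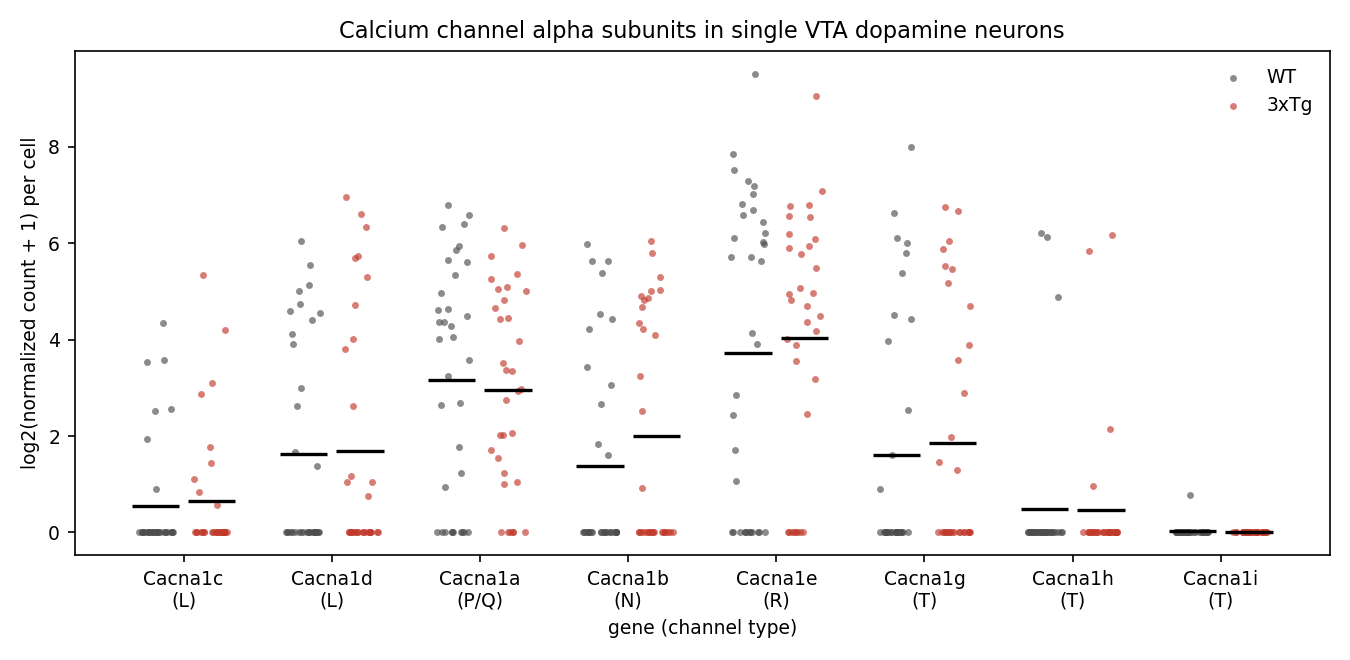
Level of each alpha subunit gene in each cell as log2(normalized count + 1), with WT cells in grey, 3xTg cells in red and black bars at the mean over the cells of a genotype. Values either sat at 0 or were spread over several log2 units, and the genotypes overlapped for all 8 genes.

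Cacna1a, the P/Q-type subunit that carries much of the calcium for fast transmitter release, lies on the plus strand of chr8 at chr8:84415364-84640249 (mm10, 47 exons in the transcript used for its length). Its normalized count, the estimated count divided by the size factor of the cell, ran from 0 through a median of 15.1 to 110.0 in WT cells and from 0 through 6.86 to 78.9 in 3xTg cells. The WT median was the higher one and the ranges overlapped. At least 1 count was present in 25 of 35 WT cells (71.4%, exact Clopper-Pearson interval 53.7% to 85.4%), and 27 of 33 3xTg cells had it (81.8%, 64.5% to 93.02%). More 3xTg cells therefore held a count while the cells that held one had fewer, with a median normalized count of 21.5 in WT and 10.4 in 3xTg cells with a count.

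Cacna1b, the N-type subunit found with Cacna1a at presynaptic terminals, lies on the minus strand at chr2:24606375-24763152. Its normalized count was 0 at the lowest and at the median in both genotypes, and reached 62.6 in WT and 65.1 in 3xTg cells. It was counted in 12 WT cells (34.3%, 19.1% to 52.2%) and 15 3xTg cells (45.5%, 28.1% to 63.6%). Every one of these 27 cells also had a count of Cacna1a, whereas 25 further cells had Cacna1a without Cacna1b and 0 cells had Cacna1b without Cacna1a. The ratio of Cacna1b to Cacna1a per kb in the 27 cells ran from 0.0305 to 25.5 with a median of 0.679, so the 2 genes were not counted in a fixed proportion. Cells with both had a median of 9051 genes detected, cells with Cacna1a alone 7011 and the 16 cells with neither 4949, and the part of genes detected in the nesting was not tested.

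Cacna1e, the R-type subunit, lies on the minus strand at chr1:154392519-154725920, and its longest RefSeq-linked transcript, at 14921 bases against a coding length of 6819, has the longest untranslated part of the 8. Normalized counts ran from 0 through a median of 16.7 to 732.6 in WT and from 0 through 24.8 to 530.5 in 3xTg. It was counted in 23 WT cells (65.7%, 47.8% to 80.9%) and 25 3xTg cells (75.8%, 57.7% to 88.9%). Per kb of transcript the 2 highest normalized counts of any member in any cell were both of Cacna1e, 49.1 in WT cell 57 and 35.55 in 3xTg cell 26, and each came from a cell with few genes detected (5198 and 4101). WT cell 57 held 22.2% of all WT counts of the gene and 3xTg cell 26 held 16.99% of those in 3xTg. Apart from Cacna1e, WT cell 57 had no count of any other member, and 3xTg cell 26 had only a normalized count of 1.76 of Cacna1g.

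Of the L-type genes, Cacna1d was counted more often than Cacna1c. Cacna1d encodes the channel that opens at more negative voltages than Cav1.2 and is tied to pacemaking in midbrain DA neurons, and it lies at chr14:30039939-30491156 on the minus strand. Its normalized count was 0 at the median of both genotypes and reached 65.3 in WT and 124 in 3xTg, with a count in 14 WT cells (40%, 23.9% to 57.9%) and 14 3xTg cells (42.4%, 25.5% to 60.8%). Cacna1c, at chr6:118592296-119196409 on the minus strand, was counted in 7 WT (20.0%, 8.44% to 36.9%) and 9 3xTg cells (27.3%, 13.3% to 45.5%) and reached 19.5 and 39.5. Only 3 WT and 3 3xTg cells had at least 10 counts of Cacna1c, against 11 and 9 cells for Cacna1d. The 2 L-type genes were thus on different levels, with Cacna1d above Cacna1c per kb in both genotypes by intervals that did not overlap.

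Among the T-type genes Cacna1g made up most of the counts. Cacna1g, at chr11:94408391-94474198 on the minus strand, had a normalized count of 0 at the median and up to 255.8 in WT and 106 in 3xTg, with a count in 12 WT (34.3%, 19.1% to 52.2%) and 14 3xTg cells (42.4%, 25.5% to 60.8%). WT cell 16 alone held 25.8% of the WT counts. Cacna1h, at chr17:25374287-25433783 on the minus strand, was counted in 3 WT cells (8.57%, 1.80% to 23.1%) and 4 3xTg cells (12.1%, 3.40% to 28.2%), yet where it was counted in WT it was not low, with normalized counts of 28.5 to 72.7. In 3xTg, cell 84 held 56.03% of its counts. Cacna1i, at chr15:80287238-80398292 on the plus strand, had a single count in 1 WT cell (2.86% of the cells, up to 14.9%) and none in 33 3xTg cells (up to 10.6% of cells). At this depth its presence in these neurons was not detectable beyond that count.

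**Figure D2:**
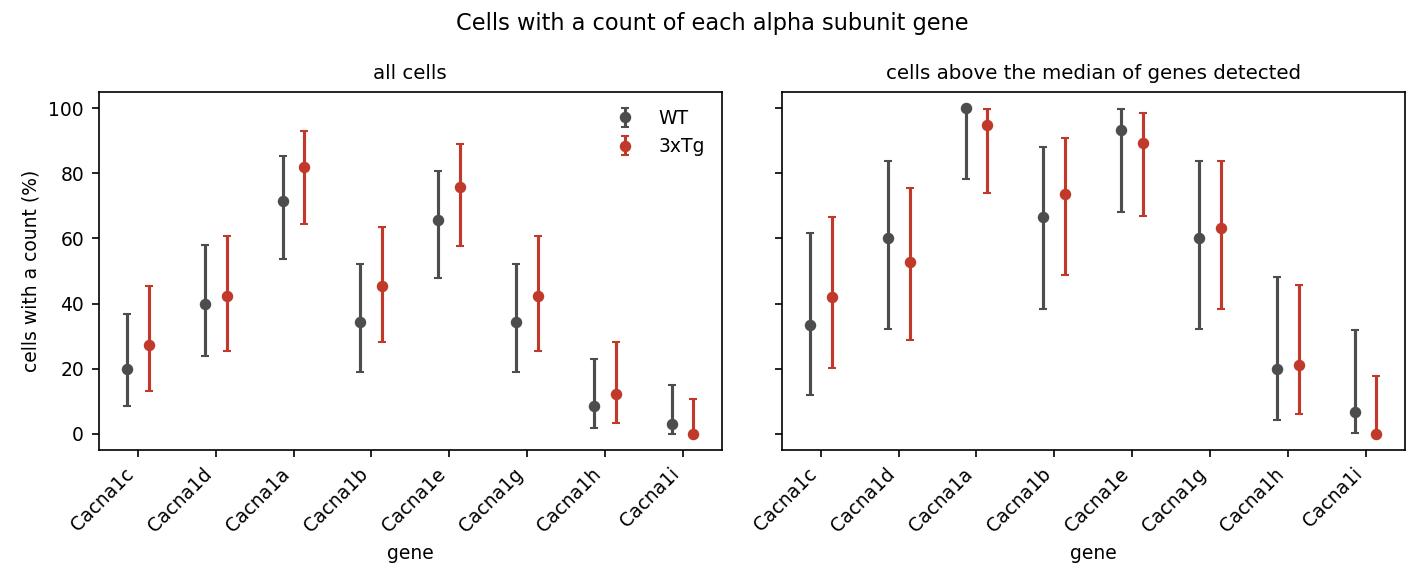
Percent of cells with at least 1 count of each gene in WT (grey) and 3xTg (red), with exact 95% Clopper-Pearson bars, over all cells on the left and over the cells above the median of genes detected on the right. Cacna1a and Cacna1e are highest in both panels and every gene's bars overlap between genotypes.

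How many of the 8 genes a cell showed went with how many genes it showed in all. The number of members counted per cell ran from 0 to 6, with a median of 2 in WT and 3 in 3xTg. WT cells 6, 11 and 20 and 3xTg cells 35 and 43 had none, and no cell had 7 or 8. Spearman's rho between members counted and genes detected was 0.81 over the 68 cells, 0.88 in WT and 0.74 in 3xTg, as a description over cells of differing totals. The 34 cells with more than 7944 genes detected, the median, had a median of 5 members, and the other 34 cells 1.5.

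In the 34 cells with more genes detected, Cacna1a was counted in 33 (97.1%, 84.7% to 99.9%) and Cacna1e in 31 (91.2%, 76.3% to 98.1%). Cacna1b was counted in 24 of these cells and in 3 of the other 34, which was the widest gap of the 8 genes between the cells with more and with fewer genes detected. Cacna1g was counted in 21 and 5, Cacna1d in 19 and 9, Cacna1c in 13 and 3, and Cacna1h in 7 and 0. In the cells with fewer genes detected Cacna1a was counted in 19 of 34 and Cacna1e in 17. Thinned to 700471 counts a cell, which left out 5 WT and 2 3xTg cells, Cacna1a was present in 70% of WT and 80.6% of 3xTg cells and Cacna1b in 33.3% and 45.2%, near the unthinned shares. Thinning equalized the totals and not the genes detected, and the intervals of the genotypes overlapped (50.6% to 85.3% and 62.5% to 92.5% for Cacna1a). Fewer transcripts in a cell and less RNA recovered from it cannot be told apart here.

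**Figure D3:**
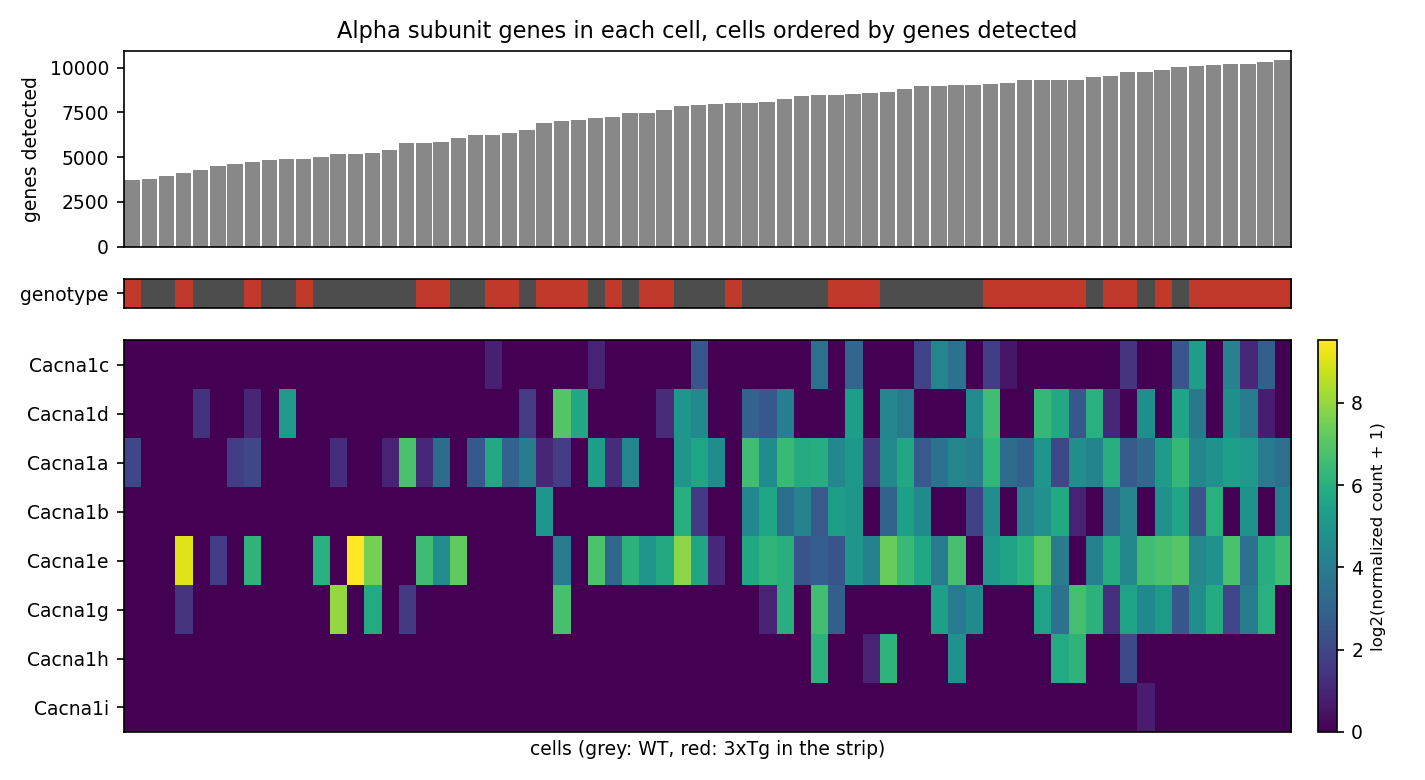
Each column is a cell, ordered from fewest to most genes detected (bars on top), with genotype in the strip and the level of each member as log2(normalized count + 1) in color. Among the 34 cells at the right Cacna1a was counted in 33, Cacna1e in 31 and Cacna1b in 24 of its 27 cells, all 7 cells with Cacna1h lie there, and the brightest Cacna1e cells, WT cell 57 and 3xTg cell 26, lie at the left.

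Read as channel types, the R type had the largest share of the length-scaled sum over the 8 genes, a lead that in WT rested on 1 cell per kb of transcript. In WT the shares of the summed CPM per kb of transcript were 33.8% for R, 26.6% for P/Q, 22.2% for T, 9.98% for L and 7.41% for N. Without WT cell 57 the WT shares of P/Q and R were 28.7% and 28.4%, so that P/Q was narrowly first. In 3xTg they were 26.6% for R, 21.6% for T, 21.2% for P/Q, 17.97% for L and 12.7% for N, and R stayed first with any cell left out. In 3xTg the T and P/Q shares were within 1 percentage point of each other, and the L and N shares were larger than in WT. The choice of length mattered more for the R type than for others, since per kb of coding sequence its share was 47.9% in WT and 38.7% in 3xTg.

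The shares sum to 100, so a type's share can be higher where its level is not, and levels are given beside them for the pairs of runs. The L share was 11.9% and 9.39% in the first and second WT runs and 21.5% and 12.6% in the 3xTg runs, while the level of the 2 L-type genes was 1.25 and 2.16 CPM per kb in WT and 2.69 and 1.48 in 3xTg. In the second pair the L share of 3xTg was above that of WT, but without 3xTg cell 78 it was 6.48% and the level 0.6995 CPM per kb. The N share was 3.94% and 8.93% in WT and 12.2% and 13.4% in 3xTg, and the N level 0.413 and 2.05 in WT and 1.52 and 1.58 in 3xTg, also lower in the second pair. Without WT cell 21 the N share of the first WT run was 0.210%, and without 3xTg cell 90 that of the second 3xTg run was 9.20%. The R share was 36.7% and 33.5% in WT and 28.6% and 23.5% in 3xTg, with levels of 3.84 and 7.71 in WT and 3.58 and 2.76 in 3xTg, though in the first pair the intervals of the level overlapped (3.61 to 4.09 and 3.38 to 3.79) and the mean over cells of the normalized count per kb was the higher one in 3xTg (3.26 in WT, 3.96 in 3xTg). The P/Q share was higher in 3xTg between the first runs (23.9% against 19.8%) and lower between the second (16.9% against 26.9%). The T share went the other way (13.9% against 27.6%, or 16.6% without WT cell 16, then 33.6%, or 24.1% without 3xTg cell 84, against 21.2%). In the second 3xTg run the T type thus led per kb of transcript, while per kb of coding sequence R led with 35.04% against 27.2% for T. Each order turned with 1 cell, to R without 3xTg cell 84 on the first scale and to T without 3xTg cell 77 on the second. In the first 3xTg run P/Q led without 3xTg cell 26 (25.9% against 22.8% for R), and in the second WT run without WT cell 57 (30.6% against 24.4%). In the last run of 3 WT cells the P/Q type held 66.01%, R 18.1%, N 11.1% and L 4.70%, and the T type was at 0, so that the R share of these WT cells lay below that of both 3xTg runs. Cacna1e was counted in only 1 of these 3 cells. Without WT cell 95 the R and N shares were 0 and that of P/Q was 84.6%.

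**Figure D4:**
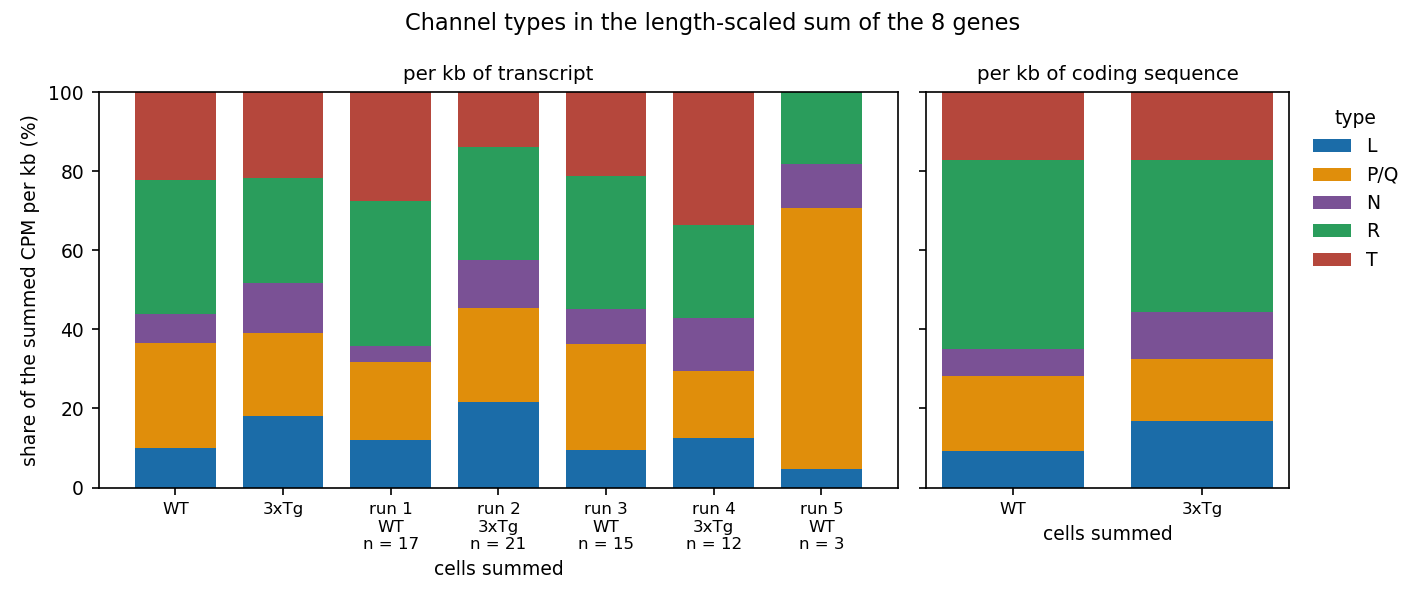
Share of each channel type in the summed CPM per kb of the 8 genes, per kb of transcript for each genotype and each run of label numbers (left) and per kb of coding sequence for each genotype (right). R is the largest block in both genotypes on either scale, though in WT per kb of transcript it is second to P/Q without WT cell 57. Per kb of transcript T is the largest in run 4 and P/Q in run 5.

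In single cells the leading type, the type with the highest normalized count per kb, was R in 25 and P/Q in 17 of the 68 cells, and these 2 types were level in WT. R led in 12 of 35 WT and 13 of 33 3xTg cells. P/Q led in 12 WT and 5 3xTg cells, T in 5 and 5, L in 2 and 6 and N in 1 and 2. Averaged over the cells with any member, the share of R was 34.2% and that of P/Q 30.2%, with genotypes weighted equally. In the cells above the median of genes detected, a set chosen after the data had been seen, P/Q led instead with 26.5% against 22.9% for R, and T had 24.2%. At least 1 L-type count was present in 19 WT and 17 3xTg cells, and at least 1 T-type count in 13 and 15.

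Between genotypes, the summed counts of Cacna1a, Cacna1e and Cacna1h were lower in 3xTg and those of Cacna1d, Cacna1b and Cacna1c higher, with no gene of at least 100 counts apart by 2-fold. Cacna1a was at 33.4 CPM (interval 31.5 to 35.4) in WT and 20.5 (19.05 to 22) in 3xTg, 1.63-fold lower. Cacna1e was at 79.98 CPM (77 to 83.04) and 48.4 (46.2 to 50.7), 1.65-fold lower, and Cacna1h at 7.20 (6.33 to 8.16) and 3.84 (3.23 to 4.53), 1.88-fold lower. The log2 ratio of Cacna1h, −0.91, was −0.29 for sums of size-factor normalized counts, and −1.70 in thinned cells, where 5 WT and 2 3xTg cells were also left out. Cacna1g was at 21.5 (20.0 to 23.2) and 17.7 (16.4 to 19.1). Each of these 4 genes was counted in a larger percent of 3xTg than of WT cells, by 3.55 to 10.4 percentage points, where the median over the 13065 genes was 6.67 points.

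Cacna1d was at 12.2 CPM (11.1 to 13.5) in WT and 17.3 (15.9 to 18.7) in 3xTg, 1.41-fold higher. Cacna1b was at 11.3 (10.2 to 12.5) and 14.9 (13.7 to 16.2), 1.32-fold higher, and Cacna1c at 2.29 (1.81 to 2.86) and 2.72 (2.22 to 3.31). For Cacna1c the intervals overlapped. For 3xTg against WT, 0 of the 7 members with at least 100 counts in all were at least 2-fold higher by summed counts, where 11.8% of 13065 such genes were, and 0 of 7 at least 2-fold lower, where 14.5% were. Cacna1i, with 1 count, was under the minimum. The median log2 ratio of the 7 was −0.28, beside −0.05 over the 13065 genes.

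Averaged over cells on the scale log2(normalized count + 1), which weights each cell equally and understates differences of low genes, the members differed little. The difference of means, 3xTg minus WT, was 0.61 for Cacna1b, 0.30 for Cacna1e, 0.26 for Cacna1g, 0.09 for Cacna1c, 0.07 for Cacna1d, −0.03 for Cacna1h and −0.20 for Cacna1a. The SD over cells was 2.13 (WT) and 2.38 (3xTg) for Cacna1b and 2.45 and 2.04 for Cacna1a, so each difference was small beside the spread of cells. With Cacna1i at −0.02 the median of the 8 was 0.08, beside a median of 0.38 over the 13065 genes, whose number detected per cell was also higher in 3xTg. The mean was at least 1 higher in 3xTg for 0 of the 7 members and for 21.5% of the genes, and at least 1 lower for 0 and 0.704%. Cacna1e, with a higher mean and a lower sum in 3xTg, was the member whose 2 measures were farthest apart.

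Some of these values rested on a single cell. Without WT cell 57 the log2 ratio of summed counts of Cacna1e was −0.40 in place of −0.72. Without 3xTg cell 30 that of Cacna1d was 0.10 in place of 0.50, and without 3xTg cell 90 that of Cacna1b was 0.16 in place of 0.40. The Cacna1c ratio turned from 0.25 to −0.59 without 3xTg cell 37, the Cacna1g ratio from −0.28 to 0.11 without WT cell 16, and the Cacna1h ratio ran from −2.04 without 3xTg cell 84 to −0.13 without WT cell 74. Cacna1a moved least of the 7, from −0.95 to −0.55 around −0.70.

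**Figure D5:**
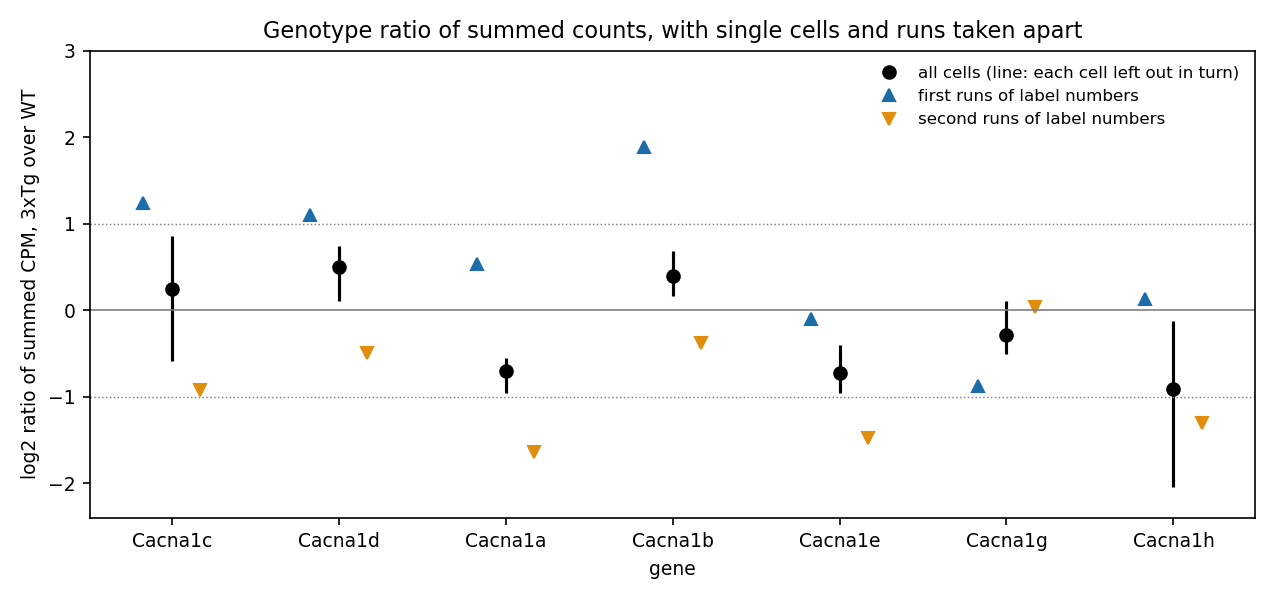
Log2 ratio of summed CPM, 3xTg over WT, for the 7 members with at least 100 counts, from all cells (black, with the range when each cell is left out in turn) and between the first and second runs of label numbers (triangles). Dotted lines mark 2-fold, and each gene except Cacna1e lies on opposite sides of 0 in the 2 pairs of runs.

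The sign of the genotype ratio differed between the 2 pairs of runs for 6 of the 7 members, all but Cacna1e, where it differed for 49.3% of the 13065 genes. Between the first runs Cacna1b (log2 ratio 1.88), Cacna1c (1.24) and Cacna1d (1.10) were over 2-fold higher in 3xTg, 3 of 7 members where 24.8% of the genes were, and 0 of 7 were over 2-fold lower, where 16.2% were. Cacna1c was at −0.22 without 3xTg cell 37 and Cacna1d at 0.52 without 3xTg cell 30, whereas Cacna1b stayed at 1.64 or above with any cell left out. Its size still rested on 1 cell, since it was at 6.29 without WT cell 21. Between the second runs Cacna1a (−1.64), Cacna1e (−1.48) and Cacna1h (−1.304) were over 2-fold lower, 3 of 7 members where 23% of the genes were, and 0 of 7 were over 2-fold higher, where 14% were. Cacna1h was at −0.35 without WT cell 74 and Cacna1e at −0.94 without WT cell 57, and Cacna1a at −1.396 or below with any cell left out. Cacna1a was at 0.53 between the first runs, and Cacna1b at −0.38, Cacna1c at −0.92 and Cacna1d at −0.50 between the second, each against its sign in the other pair. These values were near 0 without 1 cell for Cacna1b (−0.02, WT cell 64), Cacna1c (0.02, WT cell 67) and Cacna1d (−0.05, WT cell 64), and Cacna1a was at 0.15 without 3xTg cell 30. Cacna1g went from −0.87, or 0.14 without WT cell 16, to 0.04. Cacna1e was at −0.10 and −1.48, the first within counting error (57.4 CPM, 53.8 to 61.1, in the first WT run and 53.5, 50.4 to 56.6, in the first 3xTg run), while its difference of means over cells was positive in both pairs, 0.33 and 0.06. The Cacna1h ratio of 0.13 in the first pair and the Cacna1g ratio of 0.04 in the second also had overlapping intervals. The median over all genes tested was 0.14 between the first and −0.17 between the second runs.

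For 6 of the 7 members the ratio between both long WT runs was larger in size than the genotype ratio, where this held for 66.9% of the 13065 genes. The exception was Cacna1g, at 0.28 and −0.28, which without WT cell 16 was at 1.28 and 0.11. In WT the second run was over 2-fold above the first for 5 of 7 members, where 28.4% of the genes were, and over 2-fold below for 0 of 7, where 15.7% were. The 5 were Cacna1h (log2 ratio 2.60), Cacna1b (2.31), Cacna1a (1.57), Cacna1c (1.46) and Cacna1e (1.003). Cacna1e was at 0.46 without WT cell 57 and Cacna1c at 0.52 without WT cell 67, and Cacna1h rested on 1 cell of the first and 2 cells of the second WT run. Cacna1a was counted in 9 of 17 cells of the first WT run and in 14 of 15 of the second, and Cacna1b in 2 and 9. In 3xTg the second run was over 2-fold above the first for Cacna1g (1.19) and Cacna1h (1.16), 2 of 7 where 12.3% of the genes were, and over 2-fold below for 0, where 16.2% were. Without 3xTg cell 84 these were at 0.84 and −2.33. The median number of genes detected went from 5233 to 8441 between the WT runs and from 7648 to 9308 between the 3xTg runs, and its part in these differences was not tested.

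Kcnn3, the gene of the SK3 channel, had a count in 22 WT and 25 3xTg cells, and its level was 20.2 CPM per kb in WT and 18.1 in 3xTg, above each of the 8 alpha subunit genes. With no length scaling it was at 58.4 and 52.3 CPM, below Cacna1e in WT (79.98) and above it in 3xTg (48.4). WT cell 94 held 22.05% of the WT counts of Kcnn3. Cacna1a was counted in 40 of the 47 cells with Kcnn3 (85.1%, 71.7% to 93.8%) and in 12 of the 21 without (57.1%, 34.02% to 78.2%). Cacna1e was counted in 37 (78.7%) and 11 (52.4%). Cacna1b and Cacna1d were each in 24 of the cells with Kcnn3 (51.1%), and in 3 (14.3%) and 4 (19.0%) of those without, and for Cacna1b the intervals of 36.1% to 65.9% and 3.05% to 36.3% overlapped only at their ends. Cacna1g was in 22 (46.8%) and 4 (19.0%), Cacna1c in 14 and 2, and Cacna1h in 6 and 1.

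Each of the 7 members with at least 100 counts was counted in a larger percent of the cells with Kcnn3, as were 87.7% of all genes with that many counts, so nothing particular to a channel type can be read from it. The 1 count of Cacna1i was in a cell with Kcnn3. Cells with Kcnn3 had a median of 8574 genes detected and cells without 5233, and the part of this difference in these percentages was not tested. Across the 68 cells, rho of log2(normalized count + 1) with Kcnn3 was 0.23 for Cacna1b and Cacna1d, 0.11 for Cacna1a and Cacna1c, 0.08 for Cacna1e and 0.07 for Cacna1g, against 0.40 between Kcnn3 and genes detected. Such weak values in sparse counts are no finding. Kcnn2 was at 4.45 and 2.57 CPM per kb and Kcnn1 at 1.38 and 1.51, while Kcnn4 was at 0 in every cell.

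Among the members themselves the strongest rank correlation was that of Cacna1a with Cacna1b, with rho 0.57 over 68 cells, 0.64 in WT and 0.48 in 3xTg. The correlation of each with genes detected was as large, at 0.60 for Cacna1a and 0.58 for Cacna1b. Cacna1d went with Cacna1b at 0.36 and with Cacna1a at 0.34, and Cacna1e with Cacna1g at 0.12. Cacna1e had the lowest rho with genes detected of the members with enough cells, 0.35. Among 3988 widely present genes (a normalized count no lower than 1 in 80% or more of a genotype's cells), those whose pattern was most like that of Cacna1a were C330024D21Rik (rho 0.77), Gm7609 (0.74) and Grk4 (0.74), and those most like Cacna1e were Tollip (0.51), Cog7 (0.51) and Rnf5 (0.46). Tollip was at 0.74 in WT and 0.25 in 3xTg, Cog7 at 0.49 and 0.41 and Rnf5 at 0.60 and 0.28, whereas the 3 genes most like Cacna1a were at 0.67 or above in each genotype. All were picked by their rho over the same cells, so high values within a genotype follow in part from that choice. The median rho over the 3988 genes was 0.01 with Cacna1a and 0.05 with Cacna1e. Across these cells the number of genes detected also varied, and C330024D21Rik had a rho of 0.58 with genes detected, Gm7609 0.56 and Grk4 0.48.

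Auxiliary beta and alpha2delta subunits set the surface level and gating of the high-voltage-activated alpha subunits. Cacnb4 was the most counted of the beta subunit genes, in 24 WT and 24 3xTg cells, at 123 and 127 CPM, and Cacnb3 followed at 42.6 and 42.8 in 15 and 20 cells. Of the 9 auxiliary genes tested, 2 were over 2-fold higher by summed counts in 3xTg and 1 over 2-fold lower, where 11.8% and 14.5% of all genes tested were. Cacna2d3 (log2 ratio 1.77) was at 15.7 and 53.5 CPM in 11 and 13 cells with at most 25.05% of a genotype's counts in 1 cell. Cacna2d4 (3.89) had 7 WT and 112 3xTg counts with 50.9% of the latter in cell 85, and Cacnb1 (−2.01) had 52.2% of its WT counts in cell 7. Cacna2d1, a target of gabapentin, was at 88.9 and 47.1 CPM (−0.92), with 24.95% of its WT counts in cell 17 and a difference of means of −0.04. The median of the 9 was 0.04, beside −0.28 for the members and −0.05 for all genes.

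Alpha subunit genes outside the 8 had few counts, apart from 1 cell. Cacna1f had 11 and 12 counts in all, and Cacna1s, the skeletal muscle subunit, had 1 WT count and 330 in 3xTg, of which 99.7% were in 3xTg cell 43, a cell with no count of the 8 members. Of the RGK GTPases, which inhibit high-voltage-activated channels, Rrad was counted in 2 WT and 10 3xTg cells (28.9 and 142 CPM, log2 ratio 2.298, 62.6% of the 3xTg counts in cell 38). Gem (−2.99) had 86.4% of its WT counts in cell 7, Rem2 had a ratio of 0.51 and Rem1 was at 0. Of the 3 RGK genes tested, 1 was over 2-fold higher and 1 over 2-fold lower, where 11.8% and 14.5% of all genes tested were. Of 5 release channel genes tested, 2 were over 2-fold higher in 3xTg and 1 over 2-fold lower, against the same shares. Itpr2 (4.02) and Itpr3 (6.53) were the higher ones, with all 100 3xTg counts of Itpr3 in cell 31 and 51.4% of those of Itpr2 in cell 30. Itpr1 was lower (−1.01), with 26.8% of its WT counts in cell 94. Its difference of means was −0.002, and 42.9% of WT and 48.5% of 3xTg cells had a count. Ryr3, a ryanodine receptor gene, was at 39.7 and 43.8 CPM, and Ryr2 was at 3.29 and 2.56. The 3 calmodulin genes, whose protein is bound to SK channels as their calcium sensor, had ratios of 0.20 to 0.40.

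Leaving out the 10 cells with a count of Pvalb, Tmem119 or P2ry12 left 0 members over 2-fold apart and R as the leading type with 32.75%, ahead of P/Q with 24.6%. Single ratios did move, with Cacna1g from −0.28 to 0.27, Cacna1b from 0.40 to 0.04 and Cacna1c from 0.25 to 0.80, while Cacna1a and Cacna1e were at −0.84 and −0.97. The median difference of means of the 8 genes was then 0.04. WT cell 7, which held 60.1% of the WT P2ry12 counts, had Cacna1e at a normalized count of 64.5 and no other member.

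Markers of other cell types had few counts in most libraries, and their list sums were often carried by 1 gene. Summed counts per cell of 4 microglial genes ran from 0 through a median of 19 to 2648 in WT and from 0 through 24 to 2276 in 3xTg. Of the 4, Cx3cr1 was counted in 30 WT and 29 3xTg cells (log2 ratio 0.27), C1qb in 13 and 10 (−2.08, with 73.2% of the 3xTg counts in cell 43), P2ry12 in 3 and 4 (−0.35) and Tmem119 in 1 and 0. Those of 4 oligodendrocyte genes had medians of 28 and 25, and those of 4 GABA neuron genes 31 and 26. Mbp (−1.75) was counted in 35 and 32 cells and Mog in 0 and 2, and Gad2 was counted in all 68 cells but Gad1 in 6 and 5 and Slc32a1 in 3 and 2. Astrocyte and glutamate neuron lists had a median of 0 in both genotypes and a count in 8 WT cells each, against 5 and 8 3xTg cells, and the 3 endothelial genes had at most 1 count in any cell. The part of such transcripts in the genotype ratios of the calcium channel genes was not tested beyond leaving out the 10 cells above.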

How the data were processed

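Deposited values came from Patch-seq libraries (28 PCR cycles, paired reads of 100 bases). The authors aligned reads to the mm10 RefSeq transcriptome in Strand NGS 4.0, removed duplicates and deposited, per gene and cell, an estimated count and a DESeq2-normalized log2 value. Of the non-zero estimated counts 55.3% were not whole (tolerance 0.001). How reads shared by related genes were divided is not given in the sources used here, so small counts of members may hold reads of a paralog.

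Counts were divided by median-of-ratios size factors (787 genes) for differences of means of log2(count + 1), and rounded for sums, CPM and exact Poisson intervals. A gene was counted in a cell at 1 or more estimated counts. The background was the 13065 genes with a summed count of at least 100. Lengths were those of the longest RefSeq-linked transcript in GENCODE M21, and coordinates are the deposited ones. With no mouse named, each genotype is 1 sample, so no model was fitted and no p computed. Computation used Python 3.11.15, numpy 2.4.6, scipy 1.17.1 and pandas 2.3.3, with TMM factors from edgeR 4.0.16 as an alternative, and the measures were tested on simulated data.

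Named genes were the 8 members, the auxiliary, other alpha, RGK, SK, calmodulin and release channel lists, the cell type markers, and the 3 genes with the highest rho to each member counted in at least 34 of the 68 cells. The members and lists were chosen with earlier results of these data known. Alternatives were other normalizations (CPM, TMM, the deposited log2 values), pseudocounts of 0.1 and 10, thinning, cells without other cells' markers, runs of label numbers, each cell left out, other length scales and a minimum of 10 counts; the set of cells above the median of genes detected, and leaving out each cell within runs and genotypes, were chosen after seeing the data.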

Additional observations from a re-analysis of the deposited data

How the results depend on the processing

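No gene was over 2-fold apart by summed counts in all cells, in cells without markers of other cells or with size-factor normalized sums. The number was 3 between the first runs (Cacna1b, Cacna1c and Cacna1d, higher), 3 between the second (Cacna1a, Cacna1e and Cacna1h, lower), and 1 in thinned cells and in cells above the median of genes detected (Cacna1h both times), and 0 to 1 with each cell left out. The cause was not tested. The median difference of means of the 8 genes, 0.08, was 0.29 in the first runs, 0.17 with a pseudocount of 0.1, −0.13 in the second runs, −0.10 in the cells above the median of genes detected, −0.28 as a log2 ratio of sums and −0.36 over cells with a count alone, and −0.02 to 0.17 with each cell left out.

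Shares of the L, P/Q, N, R and T types, with genotypes weighted equally, were 13.97%, 23.9%, 10.0%, 30.2% and 21.9%. They were 12.8%, 30.2%, 8.74%, 34.2% and 14.05% as a mean over cells, 12.9%, 17.4%, 9.29%, 43.3% and 17.1% per coding length, and 12.3%, 18.1%, 9.33%, 43.1% and 17.2% with no length scaling. Thinned cells gave 12.97%, 21.8%, 10.4%, 31.05% and 23.7%, and cells without markers of other cells 12.7%, 24.6%, 10.3%, 32.75% and 19.6%. The first runs gave 16.7%, 21.9%, 8.045%, 32.65% and 20.7%, the second 10.98%, 21.9%, 11.2%, 28.5% and 27.4%, and cells above the median of genes detected 14.3%, 26.5%, 12.1%, 22.9% and 24.2%. With each cell left out the shares stayed within 12.6% to 14.6%, 22.9% to 24.9%, 9.26% to 10.4%, 27.5% to 31.6% and 19.9% to 23.1%. R led in all of these except the cells above the median of genes detected.

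Single-gene values turned in direction between settings. With the first runs alone the difference of means was 0.73 for Cacna1a and 1.55 for Cacna1b, and with the second runs alone −1.23 and −0.42. Of the ratios of sums, 28 of 42 values from alternatives other than leaving out single cells differed from the all-cell ratio by more than the counting error of the all-cell sums. The counting error of the alternative itself was not included. In the cells above the median of genes detected, those of Cacna1d and Cacna1b were −0.07 and 0.03 in place of 0.50 and 0.40. No paired analysis was possible because the genotypes share no label number and no mouse is named. Apart from Cacna1a and Cacna1e each member was counted in 28 cells or fewer, which limits how finely its percentages can be read.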
